A study of Mus musculus with 38 samples.

Results

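The structural proteins of the extracellular matrix and the enzymes that cut, crosslink or protect them were followed in mouse spleen cells after cyclophosphamide, an alkylating drug. The members are the single-gene probes whose symbol names a collagen, laminin, matrix metalloproteinase (Mmp), tissue inhibitor of metalloproteinases (Timp), fibulin, fibrillin, ADAM or ADAMTS protease, lysyl oxidase, SPARC family protein or thrombospondin. Col14a1 was left out of the members by rule. Of 100 such probes on the array, 62 were measured in 3 or more mice of every group and were analysed. The same condition was met by 8319 of all 13443 probes, which were fitted together. The 62 probes stand for 62 genes. Splenocytes of DBA/2 mice were taken from 5 untreated mice and from mice injected with cyclophosphamide at 83 mg/kg 1 day (4 mice), 2 days (5 mice) or 5 days (5 mice) earlier. Each mouse was measured on 2 technical arrays, whose values were averaged. A value is the log2 ratio of the spleen sample (Cy5) to a common pool of DBA/2 bone marrow cells (Cy3). The labels describe that pool as untreated, although its treatment field names cyclophosphamide, and it is the same kind of reference on every array. The labels name the cells splenocytes and do not say how they were released, so the share of matrix-making stromal cells in them is unknown. The labels used here state neither age nor sex of the mice.

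Collagens are triple-helical proteins: the fibrillar types form the load-bearing fibres, type IV forms the sheet of basement membranes together with laminins, and other types sit on fibre surfaces or form fine networks around vessels. Lysyl oxidases crosslink the fibres, Mmp, ADAM and ADAMTS proteases cut matrix and cell-surface proteins, and Timps block these proteases. In the spleen the matrix forms the reticular fibres on which lymphocytes, macrophages and red cell precursors sit, and it is made chiefly by fibroblastic reticular cells and endothelium.

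Not every family was seen equally well. All 5 fibulin and fibrillin probes lacked values in too many mice, as did 7 of 10 laminin probes, among them Lamb1 and Lamc1, chains of the most widespread laminins. Sparc, a major collagen-binding protein of fibroblasts, had a value in 1 mouse, and Thbs1, the thrombospondin stored in platelets, in no untreated mouse, 3 mice on day 1, 1 on day 2 and 3 on day 5. At the edge of the filter, Col15a1 was left out with a value in 2 mice on day 2. Members such as Col1a1, Col4a6, Adam10, Adam17 and Adamts5 entered with 3 mice in at least 1 group. By contrast, 7 of 8 fibrillar collagens, 6 of 8 basement membrane collagens, 10 of 14 other collagens, 11 of 17 Mmp probes, 15 of 23 ADAM probes, 3 of 3 ADAMTS probes, 2 of 3 Timps, 2 of 3 lysyl oxidases and 3 of 6 SPARC and thrombospondin probes were kept. Of the 62 members, 25 had a value in all 19 mice.

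An array held 5829 to 10407 values. The correlation between the technical arrays of a mouse ran from 0.581 to 0.962 with a median of 0.86, with the smallest values in day 5 mouse 5 (0.673) and in untreated mice 2 (0.651) and 4 (0.581). Day 2 mouse 3 had the fewest member values, 35 of 62. The median absolute difference between the technical arrays was 0.17 for members and 0.12 for all tested probes. In untreated mice the mean over 7 B cell markers was 0.26 to 0.90 per mouse, although Cd72 (-0.68), Fcer2a (-0.16) and Blk (-0.03) had group means below 0, and the mean over 4 T cell markers was -0.01 to 0.32. The mean over 5 neutrophil and early granule markers was -2.75 to -1.55. Each such mean, here and below, covers the probes of the list with a value in that mouse, so the probes can differ between mice.

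Across the days few members changed. Changes were tested with limma over all 8319 probes, and a probe was called at a Benjamini-Hochberg adjusted p below 0.05. On day 1 against untreated, 1 of 62 members rose and none fell, beside 2.33% of all tested probes called, 0.938% higher and 1.39% lower. At an unadjusted p below 0.05 were 4 members, beside 13.2%. On day 2 against untreated, 2 members rose and 3 fell, 5 of 62, beside 8.31% of all probes, 3.31% higher and 5.0% lower. At an unadjusted p below 0.05 were 9 members, beside 20.9%. On day 5 against untreated no member was called by limma, beside 0.0721% of all probes, 0.0481% higher and 0.024% lower, and no member had an unadjusted p below 0.05, beside 5.22%. The shares of members called on days 1 and 2 were thus near those of the array as a whole. The median change of the 62 members was 0.04 on day 1, 0.01 on day 2 and 0.03 on day 5, against 0.02, 0.01 and 0.01 over all tested probes. Because spleen cells were measured in bulk, fewer cells of a type and less RNA per cell cannot be told apart in any of these values.

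**Figure D1:**
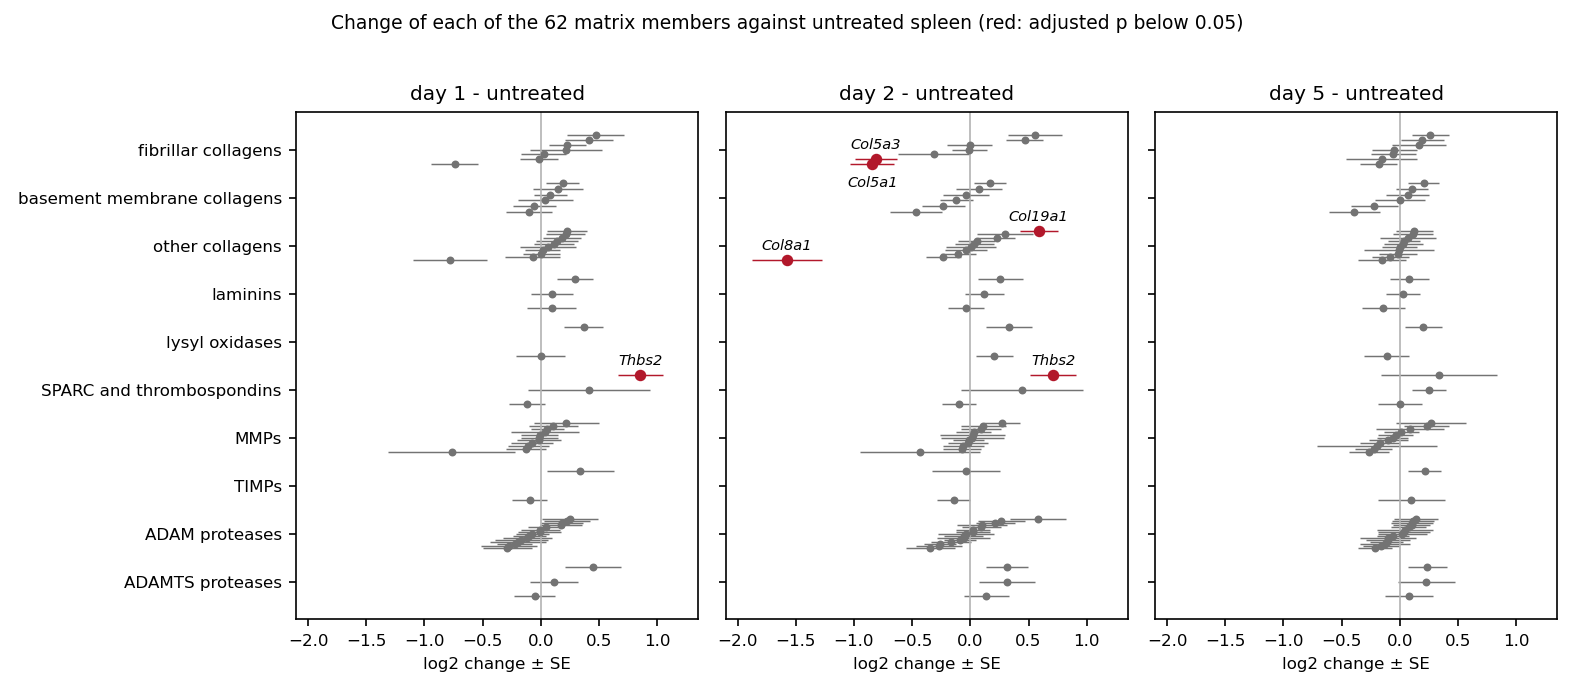
Log2 change against untreated spleen (x axis, with standard error) of the 62 members on day 1, day 2 and day 5, in rows by role; red points had an adjusted p below 0.05. Red are Thbs2 on day 1, to the right, and on day 2 Col8a1, Col5a1 and Col5a3 to the left and Thbs2 and Col19a1 to the right. No point is red on day 5. On day 1 Col8a1 (-0.78), Mmp9 (-0.77) and Col5a1 (-0.74) lie to the left without being red.

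The 5 called members are Col8a1, Col5a3 and Col5a1, which fell, and Thbs2 and Col19a1, which rose. The bases before their start sites are shown as a description. Each line gives the 250 bases upstream of the RefSeq start (GRCm38.p6), 5′ to 3′ on the gene's strand, for 5 of 5 genes matched by symbol. The windows are chr16:57754738-57754987 (- strand), chr9:20815068-20815317 (- strand), chr2:27886175-27886424 (+ strand), chr17:14694263-14694512 (- strand) and chr1:24587438-24587687 (- strand). Capitals mark matches, on either strand, to the core letters of the TATA box (TATAAA), the box named after its letters CCAAT, the Sp1 box (GGGCGG) and the AP-1 site (TGANTCA). These motifs could overlap, and each was counted by itself.

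Col8a1: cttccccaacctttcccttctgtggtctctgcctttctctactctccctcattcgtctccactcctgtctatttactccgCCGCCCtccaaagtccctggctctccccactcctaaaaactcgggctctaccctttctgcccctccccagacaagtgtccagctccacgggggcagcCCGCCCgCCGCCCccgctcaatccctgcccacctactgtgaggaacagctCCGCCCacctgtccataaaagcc
Col5a3: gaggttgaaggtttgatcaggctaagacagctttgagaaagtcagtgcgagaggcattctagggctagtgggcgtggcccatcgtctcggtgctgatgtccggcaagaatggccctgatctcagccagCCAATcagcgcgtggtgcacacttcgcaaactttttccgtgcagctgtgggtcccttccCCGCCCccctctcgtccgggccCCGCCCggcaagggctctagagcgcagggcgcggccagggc
Col5a1: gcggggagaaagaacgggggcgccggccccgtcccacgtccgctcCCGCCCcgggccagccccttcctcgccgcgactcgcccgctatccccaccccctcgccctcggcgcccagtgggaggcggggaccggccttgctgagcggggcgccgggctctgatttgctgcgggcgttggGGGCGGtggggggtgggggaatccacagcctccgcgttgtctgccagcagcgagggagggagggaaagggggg
Thbs2: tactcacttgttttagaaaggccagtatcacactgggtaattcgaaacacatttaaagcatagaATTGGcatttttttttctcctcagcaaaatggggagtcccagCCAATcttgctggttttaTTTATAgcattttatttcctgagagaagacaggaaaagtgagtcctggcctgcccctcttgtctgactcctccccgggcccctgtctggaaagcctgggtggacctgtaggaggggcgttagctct
Col19a1: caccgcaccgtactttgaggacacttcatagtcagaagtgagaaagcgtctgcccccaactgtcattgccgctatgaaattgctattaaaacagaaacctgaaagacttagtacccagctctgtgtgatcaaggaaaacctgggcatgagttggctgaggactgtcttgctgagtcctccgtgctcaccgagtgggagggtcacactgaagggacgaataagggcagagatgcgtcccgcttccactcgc

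GGGCGG or its complement was found 4 times in the window of Col8a1, 2 times in Col5a3 and 2 times in Col5a1, and not in the windows of Thbs2 and Col19a1. Of 32851 upstream windows of this length in the RefSeq table, 32.7% hold it. CCAAT, held by 33.8% of all windows, was found 2 times in Thbs2 and 1 time in Col5a3. TATAAA, held by 12.4%, was found 1 time, in Thbs2, on the strand opposite the gene and 126 to 121 bases before the start. TGANTCA, held by 6.75%, was found in none of the 5. The windows of Col5a1, Col5a3 and Col8a1 were 76.4%, 62.8% and 60.8% G or C, those of Col19a1 and Thbs2 52% and 46.8%, and the median over all windows was 52.4%. The shares over all windows were not matched for G or C content. These matches describe letters and show no binding, and a link to the direction of change was not tested.

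Among the fibrillar collagens, 2 of 7 fell on day 2 and none rose, beside 5.0% of all tested probes lower and 3.31% higher. Both encode chains of type V collagen, the minor fibrillar collagen that sets where fibrils start and how thick they grow. Col5a1 encodes its most common chain. Its log2 ratio in untreated mice 1 to 5 was 0.78, 0.19, 0.27, -0.23 and 0.64. On day 1 it was -0.26, -0.43, -0.56 and -0.40, and on day 2 it was -1.17, -0.34, -0.43, -0.08 and -0.54. On day 5 it was 0.61, 0.26, 0.19, 0.11 and 0.20. Every day 1 mouse lay below every untreated mouse, the day 2 mice overlapped the untreated group only through untreated mouse 4, and every day 5 mouse lay above every day 2 mouse. The change was -0.74 ± 0.20 (SE) on day 1, which missed the threshold (adjusted p = 0.0569), and Col5a1 fell 1.79-fold on day 2 (log2 -0.84 ± 0.19, 5 against 5 mice, limma adjusted p = 0.00748). Without untreated mouse 4, whose technical arrays correlated least, the day 1 change passed (-0.88, adjusted p = 0.0205). In all it passed under 9 of 37 alternatives (adjusted p = 0.00342 to 0.0461), among them quantile normalization (0.0271), equal spread (0.0441), the mouse as a random effect (0.00716), leaving out the 3 mice of least technical correlation (0.0263) and leaving out day 2 mouse 1 (0.0235) or 4 (0.0461). On day 5 the change was -0.05 (95% confidence interval -0.45 to 0.34).

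Col5a3 encodes a rarer chain of the same collagen. In untreated mice it was at -0.0059, -0.12, 0.05, -0.37 and -0.58, and on day 1 at -0.20, -0.37, -0.26 and 0.10. On day 2 it was at -1.81, -0.88, -0.93, -0.64 and -0.84, and on day 5 at 0.04, 0.18, -0.21, -0.19 and 0.12. All day 2 mice lay below all mice of the other 3 groups, which overlapped one another. Col5a3 fell 1.75-fold on day 2 (log2 -0.81 ± 0.18, limma adjusted p = 0.00748), while the day 1 change was 0.02 ± 0.19. Without day 2 mouse 1, the lowest, the day 2 change was -0.61 (adjusted p = 0.0116).

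The other measured chain of type V collagen, Col5a2, did not follow. It was at 0.83, 0.43, 0.40, -0.18 and 0.87 in untreated mice, 0.22, 0.83, 1.38 and 1.33 on day 1, 0.86, 0.78, 1.31, 0.55 and 1.64 on day 2, and 0.52, 0.78, 0.62, 0.73 and 0.53 on day 5. The groups overlapped. Its day 2 difference was 0.56 ± 0.23 (adjusted p = 0.167), and it passed only when both technical arrays were fitted with the mouse as a random effect (adjusted p = 0.0398). The chains of type I collagen, the main fibre of reticular and connective tissue, also missed the threshold on day 2, Col1a2 with 0.47 ± 0.16 (adjusted p = 0.0836) and Col1a1 with -0.0065 ± 0.19 (adjusted p = 0.989). Col3a1, the main collagen of reticular fibres, varied most in this family (pooled SD 0.49 within groups) and differed by -0.31 ± 0.31 on day 2. Col11a1 differed by -0.0094 ± 0.15.

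**Figure D2:**
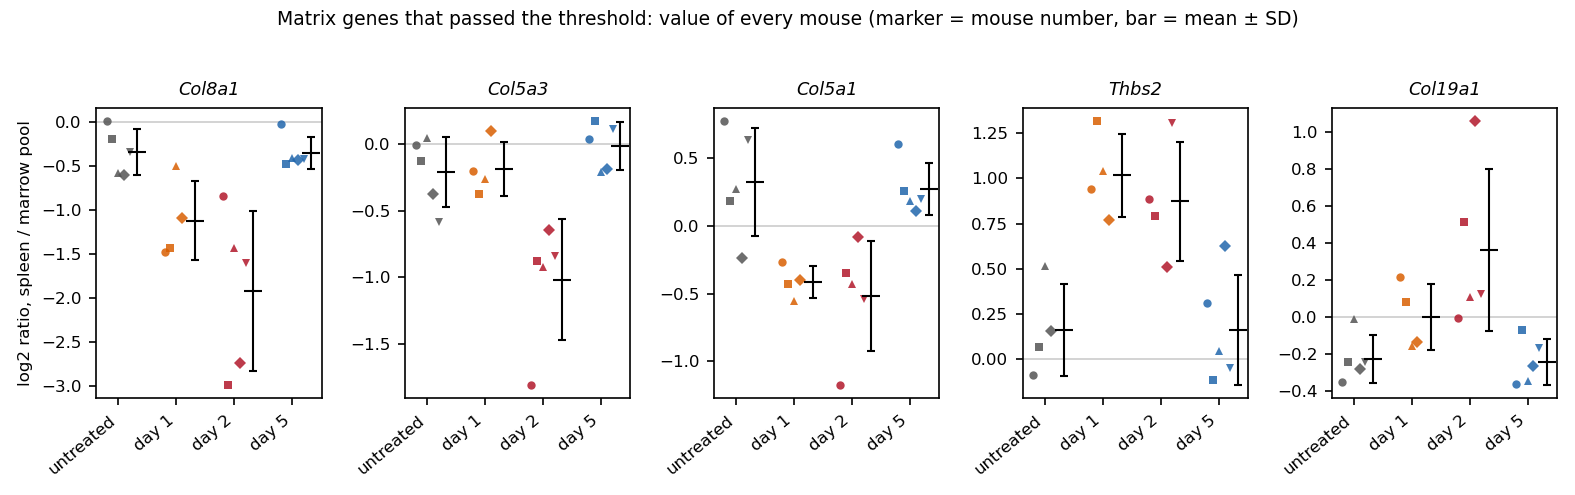
Log2 ratio of spleen to the marrow pool (y axis) for Col8a1, Col5a3, Col5a1, Thbs2 and Col19a1 in every mouse of the 4 groups (x axis). The marker shape gives the mouse number, which was not used to link mice between groups, and the bars the group mean and SD. The day 2 mice of Col8a1 and Col5a3 lie below all untreated and day 5 mice, and those of Col19a1 above them.

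Col8a1 had the largest day 2 change of any member. It encodes a short-chain collagen that forms networks beneath endothelium and in vessel walls. Untreated mice were at 0.012, -0.20, -0.58, -0.60 and -0.34, and day 1 mice at -1.48, -1.42, -0.50 and -1.09. Day 2 mice were at -0.84, -2.98, -1.43, -2.74 and -1.60, and day 5 mice at -0.03, -0.47, -0.40, -0.43 and -0.42. No day 2 mouse reached the untreated range, 3 of 4 day 1 mice also lay below it, and the day 5 mice lay within the untreated range. Col8a1 fell 2.98-fold on day 2 (95% confidence interval 1.93 to 4.61, log2 -1.58 ± 0.30, limma adjusted p = 0.0019). The day 1 change was -0.78 ± 0.32 (adjusted p = 0.261). The day 2 mice differed widely, and day 2 mouse 1, lowest for Col5a3 and Col5a1, was the highest for Col8a1.

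Col19a1 encodes a collagen of the fibril-associated kind, found near vascular and neural basement membranes. Untreated mice were at -0.35, -0.25, -0.01, -0.28 and -0.25, and day 1 mice at 0.21, 0.08, -0.16 and -0.14. Day 2 mice were at -0.0031, 0.51, 0.11, 1.06 and 0.12, and day 5 mice at -0.37, -0.07, -0.35, -0.27 and -0.17. The day 2 and untreated groups did not overlap, although day 2 mouse 1 and untreated mouse 3 lay close together. Col19a1 rose by 0.59 ± 0.16 on the log2 scale on day 2 (5 against 5 mice, limma adjusted p = 0.0279). Leaving out any 1 of untreated mice 1, 2 or 4 or of day 2 mice 2 or 4 ended the call, with adjusted p = 0.0507 to 0.0689, and without day 2 mouse 4 the change was 0.41.

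Thbs2, a secreted thrombospondin that binds matrix proteases and restrains vessel growth, was the only member called on day 1. It was at -0.09, 0.07, 0.51 and 0.15 in untreated mice 1 to 4 and had no value in mouse 5. On day 1 it was at 0.94, 1.32, 1.04 and 0.77, and on day 2 at 0.89, 0.79, 0.51 and 1.30 in mice 1, 2, 4 and 5. On day 5 it was at 0.31, -0.12, 0.04, 0.63 and -0.05. All day 1 mice lay above all untreated mice, whereas day 2 mouse 4 and untreated mouse 3 were level. Thbs2 rose 1.81-fold on day 1 (log2 0.85 ± 0.20, 4 against 4 mice, limma adjusted p = 0.0239) and 1.64-fold above untreated on day 2 (0.71 ± 0.20, adjusted p = 0.0298). The day 1 call ended without untreated mouse 1, 2 or 4 or day 1 mouse 2 or 3 (adjusted p = 0.0529 to 0.0945), and the day 2 call without untreated mouse 1, 2 or 4 or day 2 mouse 1 or 5 (adjusted p = 0.0541 to 0.108). With the first technical array of each mouse alone, the day 2 change was 0.43 (adjusted p = 0.518).

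When the 3 mice whose technical arrays correlated least were left out, the calls of Col8a1 (-1.61, adjusted p = 0.0173), Col5a1 (-1.08, adjusted p = 0.00409) and Col5a3 (-0.84, adjusted p = 0.0385) on day 2 still passed. Those of Thbs2 on day 1 (0.80, adjusted p = 0.179) and day 2 (0.66, adjusted p = 0.186) and of Col19a1 (0.56, adjusted p = 0.137) did not.

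Members whose mice did not overlap the untreated mice were counted whether or not they passed the threshold. On day 1 they were 3 of 62, beside 8.32% of all probes: Thbs2, which passed, and Col5a1 and Adam10, which did not. Adam10, a sheddase of Notch and other surface proteins, differed by -0.20 ± 0.24, with only 3 against 3 mice measured. On day 2 they were 5, beside 8.84%: Col8a1, Col5a3 and Col19a1, which passed, and Col4a5 (-0.23 ± 0.18, 4 against 4 mice) and Adamts5 (0.31 ± 0.18, 3 against 3 mice), which did not. On day 5 it was 1, Col4a5, beside 1.59% (-0.22 ± 0.20, 3 against 4 mice, adjusted p = 0.945).

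The direction of change between days was tested directly. Day 2 against day 1 gave no called member in limma, beside 0.0601% of all probes, with 5 members at an unadjusted p below 0.05, beside 6.02%, and 3 members whose groups did not overlap, beside 3.39%. These 3 were Col5a3 (-0.84 ± 0.19, adjusted p = 0.23), Col1a1 (-0.42 ± 0.19, 4 against 3 mice) and Col4a4 (-0.51 ± 0.24). Day 5 against day 2 gave 5 called members of 62, beside 5.3% of all probes, 3.8% higher and 1.5% lower, and they are the 5 members called on day 2. At an unadjusted p below 0.05 were 12 members, beside 18.3%. Col8a1 rose by 1.57 ± 0.30 (adjusted p = 0.00314), Col5a3 by 1.01 ± 0.18 (adjusted p = 0.0020) and Col5a1 by 0.79 ± 0.19 (adjusted p = 0.0177). Thbs2 fell by 0.71 ± 0.19 (adjusted p = 0.0309) and Col19a1 fell by 0.60 ± 0.16 (adjusted p = 0.0326). Both comparisons share the day 2 mice. In 4 of the 5, all but Thbs2, the day 2 and day 5 mice did not overlap, beside 7.37% of all probes. The day 5 against day 2 call of Col5a1 ended without day 5 mouse 1 (adjusted p = 0.057), and those of Thbs2 and Col19a1 each ended without any 1 of 6 mice (adjusted p = 0.0508 to 0.112 and 0.0558 to 0.08). An F-test over the 4 conditions called 4 members, beside 6.0% of all probes, namely Col8a1 (adjusted p = 0.00359), Col5a3 (0.00412), Col5a1 (0.00793) and Thbs2 (0.00878).

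The basement membrane components held no called member. Of 6 basement membrane collagens, changes against untreated ran from -0.47 to 0.20 over the 3 days. The smallest F-test p belonged to Col4a4, a chain of the type IV network known from kidney. It was at 0.60, 0.09, -0.16, 0.29 and 0.61 in untreated mice and at 0.26, 0.62, 0.08 and 0.35 on day 1. On day 2 it was at -0.11, -0.06, -0.32, -0.37 and -0.04, and on day 5 at -0.91, 0.37, -0.48, 0.57 and -0.06. All day 2 mice were below 0, within the range of the widely scattered day 5 mice, and the day 2 difference from untreated was -0.47 ± 0.22 (adjusted p = 0.233). Col18a1, whose end fragment is endostatin, differed by 0.32 ± 0.14 between day 5 and day 2 (adjusted p = 0.224). The 3 measured laminin chains differed from untreated by -0.14 to 0.29. Lama3, a chain of epithelial laminins, was at 0.07, -0.19, 0.21, 0.14 and 0.12 in untreated mice and at 0.40, 0.17, 0.15 and 0.73 on day 1, groups that overlap (0.29 ± 0.15, adjusted p = 0.438).

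Apart from Col8a1 and Col19a1, the other collagens stayed within -0.23 and 0.30 of untreated on all 3 days. They include the type VI chains Col6a1, Col6a2 and Col6a4, which form beaded microfibrils around cells and differed on day 2 by 0.22 ± 0.16, 0.05 ± 0.16 and 0.03 ± 0.16. Over all 23 measured collagens the median change was 0.08 on day 1, with 17 above 0, and -0.0094 on day 2, with 10 above 0.

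The lysyl oxidases gave no call. Lox was at -0.37, -0.17, -0.27, -0.68 and -0.21 in untreated mice, -0.50, -0.22, 0.02 and -0.66 on day 1, -0.41, -0.25, 0.50, -0.18 and 0.30 on day 2, and -0.35, -0.29, -0.13, -0.37 and -1.12 on day 5. Of the day 2 mice, 3 and 5 lay clearly above the untreated range, and the difference was 0.33 ± 0.20 (adjusted p = 0.362). Its relative Loxl1 differed by 0.37 ± 0.17 on day 1 (adjusted p = 0.34), when 3 of 4 mice lay above all untreated mice.

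Of the matricellular proteins beside Thbs2, Thbs3 was below 0 in all untreated mice and differed by -0.12 ± 0.15 on day 1 and 0.25 ± 0.15 on day 5. Sparcl1, a SPARC relative of vessel walls and high endothelial venules, had the second widest spread of the members (pooled SD 0.81). Its day 2 mice 1, 2, 4 and 5 were at -0.21, 0.32, -0.17 and 2.53, so that 1 mouse lay far above the group mean of 0.62, and the difference from untreated was 0.45 ± 0.53.

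No Mmp or Timp was called in any comparison. Changes of the 11 Mmps against untreated ran from -0.77 to 0.27, with medians of -0.01 on day 1, 0.02 on day 2 and -0.06 on day 5. Mmp9, the gelatinase stored in neutrophil granules, had the lowest untreated ratio and the widest spread of all members (pooled SD 0.94, at the 99.7th percentile of all tested probes). It was at -1.05, -0.32, -2.05, 0.17 and -1.80 in untreated mice, -2.02, -2.52, -1.28 and -1.28 on day 1, -1.73, -1.71, -0.15, -0.47 and -3.14 on day 2, and -2.42, -0.96, -0.25, -1.64 and -0.75 on day 5. Mice of every group spread over more than 1 log2 unit and the groups overlapped, so the day 1 difference of -0.77 ± 0.55 (adjusted p = 0.607) was within the spread. Another Mmp9 probe had values in 1 or 2 mice per group and was not used. Mmp2, the gelatinase of fibroblasts, was above 0 in its 3 untreated mice (0.11 to 0.40) and on days 1, 2 and 5 lay at -0.17 to 1.10, -0.17 to 0.70 and 0.11 to 0.75. Mmp14, the membrane-bound protease that activates Mmp2, had group means between -0.06 and 0.02 and a day 2 difference of 0.02 ± 0.28.

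Mmp12, the elastase of macrophages, was at -0.05, -0.04, 0.08, -0.71 and -0.11 in untreated mice, -0.32, -0.51, 0.06 and -0.21 on day 1, 0.46, -0.04, -0.22, -0.53 and -0.03 on day 2, and -0.59, -0.32, -0.46, -0.34 and -0.45 on day 5. All day 5 mice lay below 4 of the 5 untreated mice, and the differences were -0.27 ± 0.17 against untreated and -0.36 ± 0.17 against day 2 (adjusted p = 0.266). Mmp7, a small protease of epithelia, differed by 0.27 ± 0.15 on day 2 (adjusted p = 0.319). For the remaining 6, the collagenases Mmp1a and Mmp13, Mmp10, Mmp11, Mmp19 and the tooth enamel protease Mmp20, the day 2 differences ran from -0.07 to 0.11, with standard errors of 0.14 to 0.19.

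Of the protease inhibitors, Timp4 was at -0.09, -0.27, -0.42, 0.13 and 0.07 in untreated mice, -0.01, -0.33, -0.33 and -0.18 on day 1, -0.19, -0.71, -0.29, -0.11 and -0.0080 on day 2, and -0.09, 0.08, 0.25, 0.20 and 0.04 on day 5. Day 5 mice lay on average above day 2 mice, by 0.36 ± 0.14 (adjusted p = 0.168), and the groups overlapped. Timp1, the inducible inhibitor, had a day 1 mean of 0.26 that rested on mouse 4 at 1.62, the other 3 being at -0.43, -0.05 and -0.10. Its day 2 mice lay between -0.18 and -0.08.

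**Figure D3:**
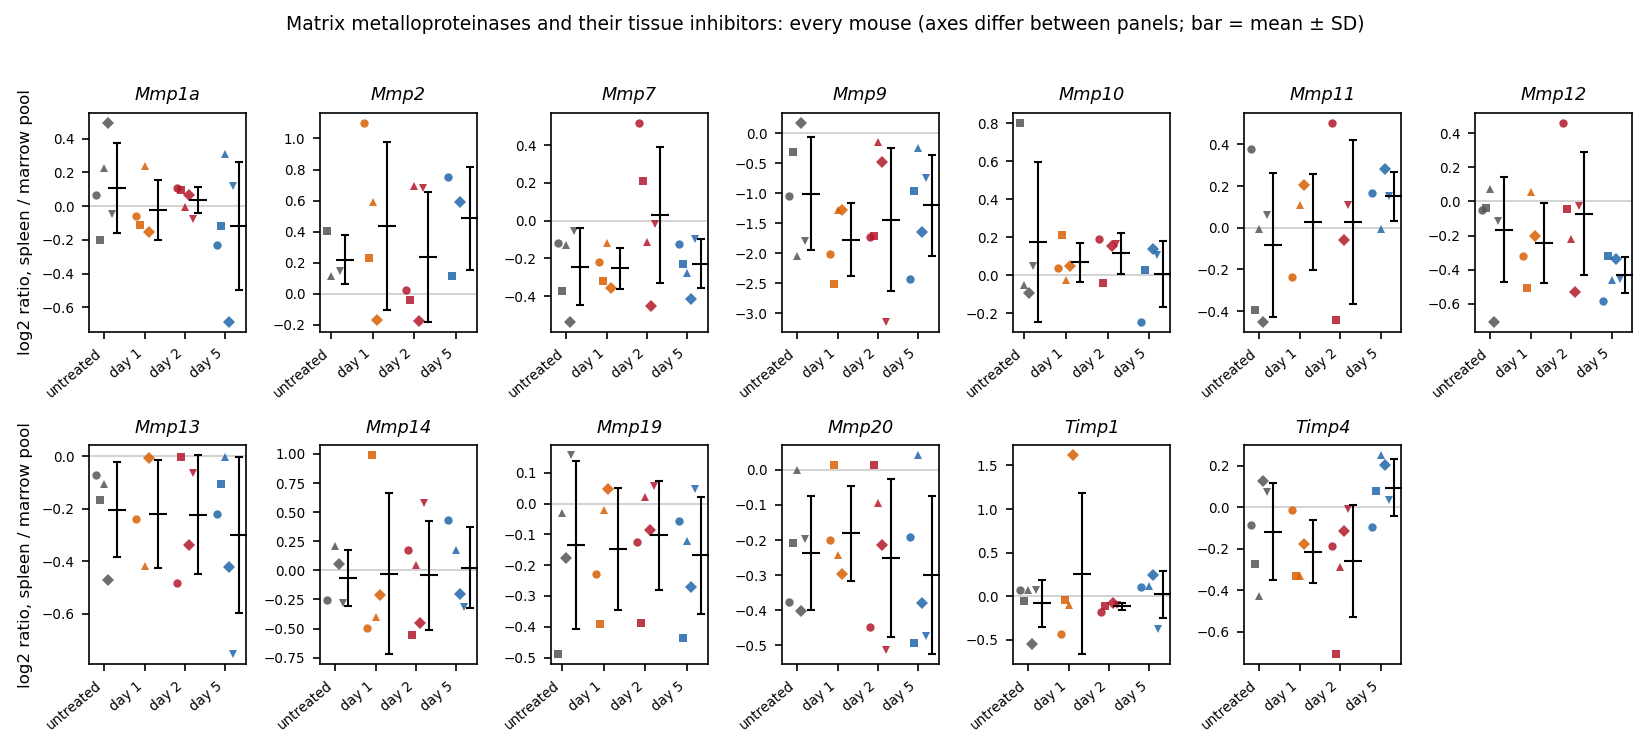
Log2 ratio of spleen to the marrow pool (y axis, scaled separately in each panel) for the 11 measured Mmps and 2 Timps in every mouse by group (x axis); bars are group mean and SD. In every panel each treated group overlaps the untreated group, and Mmp9 spans the widest range.

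The ADAM proteases, which cut growth factors, receptors and adhesion molecules from cell surfaces, gave no call among 15 members. Their median changes were -0.07 on day 1, -0.04 on day 2 and 0.02 on day 5. Adam9 had the smallest F-test p: its untreated mice were at -0.21, -0.48, -0.23, -0.72 and 0.35, its day 2 mice 1, 2, 4 and 5 at 0.28, 0.16, -0.11 and 0.97, and its day 5 mice at 0.11, -0.23, -0.30, -0.16 and -0.53. Untreated mouse 5 overlapped the day 2 mice, and the difference was 0.58 ± 0.24 (adjusted p = 0.155). Adam17, which releases tumour necrosis factor, differed by -0.27 ± 0.24 on day 1 and -0.04 ± 0.24 on day 2, and Adam15 by -0.29 ± 0.21 and -0.34 ± 0.21. Several others of the group, such as Adam2, Adam5 and Adam7, are best known from sperm and epididymis, and their changes ran from -0.26 to 0.21. Among the ADAMTS proteases, which act in the matrix itself, Adamts5, which cuts aggrecan and versican, was at -0.24, -0.05 and 0.04 in 3 untreated mice, -0.25, 0.19 and -0.35 in 3 day 1 mice, 0.08, 0.45 and 0.17 in 3 day 2 mice, and 0.13, 0.15, 0.01 and 0.33 in 4 day 5 mice. Its day 2 mice lay above the untreated mice, with adjusted p = 0.348.

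Levels against the marrow pool in untreated spleen are descriptions, since dyes were not swapped and a ratio says nothing of how abundant one gene is beside another. The members' mean ratios had a median of -0.08, against -0.03 for all tested probes. Every measured untreated mouse was above 0 for 6 members (9.68%) and below 0 for 10 (16.1%), against 12.1% and 16.8% of all tested probes. Adam15, a transmembrane protease with a disintegrin domain, had the highest mean (0.59 ± 0.32, SD, n = 4) and was above 0 in all 4 mice. Next were Col5a2 (0.47 ± 0.42, n = 5), above 0 in 4 mice, and Adam17 (0.37 ± 0.41, n = 3), above 0 in 2. The lowest means were those of Mmp9 (-1.01 ± 0.94, n = 5, above 0 in 1 mouse) and Adamts8 (-0.37 ± 0.62, n = 3). Between them lay Adamdec1, a soluble ADAM-like protein known from macrophages and dendritic cells (-0.60 ± 0.21, n = 5, from -0.84 to -0.39). Adamdec1 differed by less than its standard error of 0.21 on days 1 and 5 (-0.11 and 0.02) and by -0.27 ± 0.20 on day 2. Adamts8 owed its place to untreated mouse 4 at -1.05, the other values being -0.22 and 0.17.

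**Figure D4:**
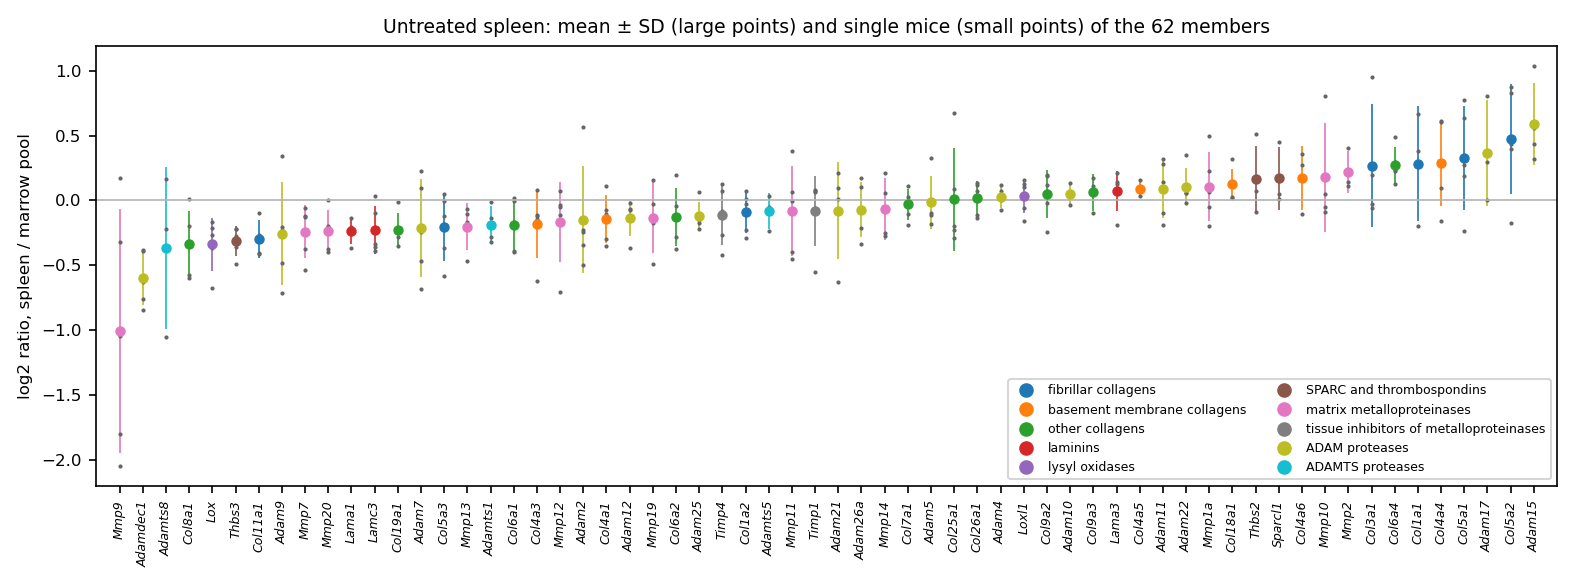
Log2 ratio of untreated spleen to the marrow pool (y axis) for the 62 members in order of their mean (x axis), coloured by role, with SD bars and single mice as small points. Most members lie within 0.5 of 0, Mmp9 is lowest with mice from -2.05 to 0.17, and Adam15 is highest.

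The members were as variable as the array. Their pooled SD within groups had a median of 0.264, against 0.266 for all tested probes, and 30 of 62 were above that. The widest were Mmp9, Sparcl1, Col8a1 (0.54), Col3a1 (0.49), Timp1 (0.49) and Mmp14 (0.47).

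Other genes of matrix assembly, turnover and adhesion were counted from a list of 90, of which 41 were measured with 43 probes. On day 1 against untreated 1 of 43 probes rose and none fell, beside 0.938% of all tested probes higher and 1.39% lower. On day 2 4 rose and none fell, beside 3.31% higher and 5.0% lower, and on day 5 none was called. Col14a1, a fibril-associated collagen, was at -0.22 to 1.48 in untreated mice. The day 1 mice ranged from 2.05 to 2.61, the day 2 mice from 1.79 to 3.00 and the day 5 mice from 1.00 to 2.03. It rose by 1.46 ± 0.30 on day 1 (adjusted p = 0.00935) and 1.49 ± 0.28 on day 2 (adjusted p = 0.00173), and in neither group did a mouse overlap the untreated mice. Lrp1, the scavenger receptor that clears thrombospondins and Mmps, rose by 1.16 ± 0.31 on day 2 (adjusted p = 0.0226), Itgb1, the shared chain of collagen and laminin receptors, by 0.54 ± 0.13 (adjusted p = 0.013), and Tgfbr2, a receptor of the matrix-inducing factor TGF-beta, by 0.53 ± 0.14 (adjusted p = 0.0206). From day 2 to day 5 Col14a1 fell by 1.08 ± 0.28 (adjusted p = 0.028) and Tgfbr2 fell by 0.53 ± 0.14 (adjusted p = 0.0297). Lrp1 had a value in 4 day 2 mice, at 0.30 to 1.63, against -0.91 to -0.02 in 5 untreated mice. How these calls of partner genes depend on the processing or on single mice was not examined.

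Marker lists of the cells that make or surround the matrix were measured in the same mice. Beside the counts below, 0.938% of all tested probes rose and 1.39% fell on day 1. The shares were 3.31% and 5.0% on day 2, and 0.0481% and 0.024% on day 5. Of 7 measured fibroblastic stroma probes, none was called on day 1 and 1 rose on day 2, and their mean per mouse ran from 0.43 to 1.53 in untreated mice, and on days 1, 2 and 5 from 1.36 to 1.87, from 0.49 to 2.20 and from 0.67 to 1.92. Pdgfra and Ccl19, defining markers of these cells, had a value in 1 mouse and in none. Of 9 endothelial probes none was called on day 1 and 1 rose on day 2, with means of 0.33 to 0.75 in untreated mice, and on days 1, 2 and 5 of 0.63 to 0.72, 0.46 to 0.89 and 0.40 to 1.20. In both lists the day 2 mice overlapped the untreated mice. Of 8 macrophage probes 1 rose on day 1 and 2 on day 2, with means of 0.22 to 0.75 in untreated mice, and on days 1, 2 and 5 of 0.89 to 1.52, 0.56 to 1.61 and 0.52 to 1.42. Of 6 megakaryocyte and platelet probes none was called on day 1, 1 rose on day 2 and 1 on day 5, with means of -0.16 to 0.41 in untreated mice, and on days 1, 2 and 5 of 0.27 to 0.68, 0.24 to 1.20 and 0.45 to 1.10. Of 11 red cell precursor probes 4 fell on day 1 and 7 on day 2, with means of -0.40 to -0.08 in untreated mice, and on days 1, 2 and 5 of -1.49 to -0.70, -2.12 to -1.08 and -0.62 to 0.08. Of 7 probes of dividing cells 4 fell on day 1 and 4 on day 2, with means of -0.26 to -0.07 in untreated mice, and on days 1, 2 and 5 of -1.48 to -1.01, -1.87 to -0.78 and -0.44 to -0.17. On day 2, when Col8a1, Col5a1 and Col5a3 fell, the red cell precursor and dividing cell means were low. Both means were also low on day 1. The day 1 changes were 0.02 for Col5a3, -0.78 for Col8a1 and -0.74 for Col5a1 (limma adjusted p = 0.985, 0.261 and 0.0569). On day 1, when Thbs2 rose, the macrophage mean was 1.14 against 0.51 in untreated mice, the stromal mean 1.61 against 0.98 and the platelet mean 0.49 against 0.10. In each of these lists 1 probe lay below untreated that day: Cd163 (-0.01), the stromal Igfbp7 (-0.63) and Itgb3 (-0.02). The other 7 macrophage, 6 stromal and 5 platelet probes lay above it. Further lists were also higher that day, with B cell means of 0.81 against 0.53 and endothelial means of 0.68 against 0.49. Monocyte means were -1.345 against -1.532, T cell means 0.16 against 0.19 and neutrophil means -2.64 against -2.08. The day 5 means were 0.98 for macrophages, 1.16 for stroma and 0.86 for platelets, and Thbs2 differed from untreated by 0.00055. The part of any of these cells in the results on the matrix genes was not tested.

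**Figure D5:**
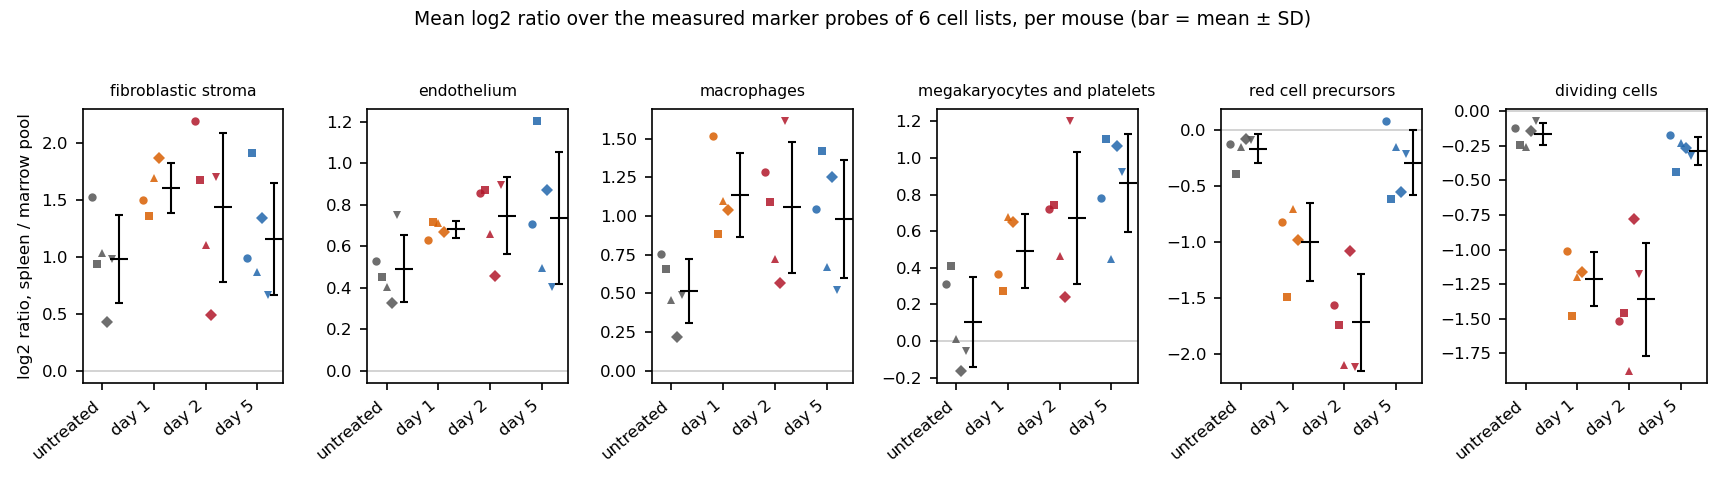
Mean log2 ratio to the marrow pool (y axis) over the measured probes of 6 marker lists in every mouse by group (x axis), with group mean and SD. Red cell precursor and dividing cell means are lowest on days 1 and 2, and the stromal, endothelial and macrophage means of treated and untreated mice lie above 0.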

How the data were processed

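The deposited values are the authors' log2 ratios of spleen (Cy5) over marrow pool (Cy3), and base 2 was assumed since no source used here names it. Per the labels' protocols, RNA was amplified and labelled without a dye swap. No source used here states the normalization or spot filter. Array medians lie between -0.0212 and 0.0132. Values are bounded at 6 in size, with 1 at the upper and 6 at the lower bound, none in a member. Technical arrays were averaged per mouse. Probes measured in 3 or more mice of every group entered limma 3.58.1 (R 4.3.3), with 1 moderated variance per probe over the 4 groups (lmFit and eBayes, prior on 5.52 degrees of freedom with variance 0.0674); missing values were left out of a probe's fit. Two-sided p values were Benjamini-Hochberg adjusted over 8319 probes at 0.05. Gene names follow the platform annotation table, with 10028 symbols checked through RefSeq (GRCm38.p6), which changed no member; 1 probe naming several genes was left out. The fit was tested on simulated data.

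Members, lists, rules and alternatives were chosen with earlier results of these data known. Named were every called member, the smallest F-test p in families without one, the 3 highest and 3 lowest untreated ratios, and all Mmps and Timps; members named beyond that (Col1a1, Col1a2, Col3a1, Col11a1, Col4a5, Col18a1, the type VI chains, Loxl1, Thbs3, Sparcl1, Adam10 and the sperm ADAMs) were chosen after their values were seen. Mice were harvested independently, per the labels, and equal mouse numbers were not treated as pairs. Deviations from group means correlated at -0.249 to 0.326 over 27 same-number combinations, 4 of them above 0.1. Combinations of unequal numbers were not compared, so these values cannot show whether the numbers mark pairs. No scan date or slide is given, so no batch was tested. Alternatives covered scaling, technical arrays, filters, spread models, samples, a replicate block and thresholds. Figures used matplotlib 3.10.9 in Python 3.11.15.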

Additional observations from a re-analysis of the deposited data

Results flagged for a closer look

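In 7 of 98 groups of 4 or 5 mice examined for the 28 named members, 1 mouse stood apart from the rest of its group, and chance alone gives about 1 group in 20. For Col5a3 on day 2, mouse 1 was at -1.81 and the others between -0.93 and -0.64. For Col8a1 on day 5, mouse 1 was at -0.03 and the others between -0.47 and -0.40. For Lox on day 5, mouse 5 was at -1.12 and the others between -0.37 and -0.13. Untreated mouse 4 was apart for Mmp12 at -0.71, the others lying between -0.11 and 0.08, and for Timp1 at -0.55, the others lying between -0.06 and 0.08. Mouse 2 was apart for Mmp10, in the untreated group at 0.80 (others -0.09 to 0.05) and on day 2 at -0.04 (others 0.15 to 0.19). Untreated mice 2 and 4 and day 5 mouse 5 are the 3 mice whose technical arrays correlated least.

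The changes against untreated differed between day 2 and day 5, by the direct limma comparison of these days, for 5 members. The difference of day 5 minus day 2 was 1.57 for Col8a1, 1.01 for Col5a3, 0.79 for Col5a1, -0.71 for Thbs2 and -0.60 for Col19a1.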

How the results depend on the processing

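No called change of the 5 called members changed direction under the alternatives, which number 36 for Thbs2 and 37 for each of the other 4. The adjusted p of the day 2 change stayed below 0.05 for Col8a1 in 37 of 37, for Col5a1 and Col5a3 in 36 of 37 each, for Col19a1 in 27 of 37, and for Thbs2 in 24 of 36, as on day 1. In 3 of these alternatives, the 2 stricter thresholds and the rule on updated symbols, the main fit is reused, so the adjusted p could not differ. On day 2 Thbs2 and Col19a1 were not called at adjusted p below 0.01, and only Col8a1 was called with a change of at least 1. The count of members called on day 1 against untreated, 1, became 0 with technical array 1 or 2 alone, at adjusted p below 0.01 or with a change of at least 1, and 2 with array weights; leaving out 1 mouse gave 0 to 2. The day 2 count of 5 became 3 with quantile normalization, equal spread, technical array 1 alone, when the 3 mice with the least technical correlation were left out or at adjusted p below 0.01, 2 with only the groups compared in the fit, and 1 with a change of at least 1; leaving out 1 mouse gave 3 to 5. The day 5 against untreated count stayed at 0 in all alternatives. The day 2 against day 1 count of 0 became 1 with array weights. The day 5 against day 2 count of 5 became 1 with quantile normalization, 2 with equal spread, technical array 1 alone, adjusted p below 0.01 or a change of at least 1, and 3 with technical array 2 alone, only the groups compared or without the 3 mice; leaving out 1 mouse gave 3 to 5. The cause was not tested. The day 1 count of 1 stood for Col5a1 in place of Thbs2 with quantile normalization, equal spread, the mouse as a random effect and without the 3 mice. The F-test count of 4 stayed between 3 and 5. With the mouse number as a replicate block, counts against untreated were 0 on day 1, 4 on day 2 and 0 on day 5. They were 0 for day 2 against day 1, 3 for day 5 against day 2 and 4 in the F-test. Whether the numbers pair the mice is not known. In that limma fit Thbs2 lost its day 1 (adjusted p = 0.0563), day 2 (0.0837) and day 5 against day 2 (0.0644) calls. Col19a1 lost its day 5 against day 2 call (0.0534).

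With 4 or 5 mice a group, and fewer where values are missing, the median standard error of a member's day 2 change was 0.18. Families kept only in part, laminins above all, are described by their measured members.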
